A study of Drosophila melanogaster with 10 samples.

Results

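Cytochrome P450 genes of Drosophila melanogaster were followed over 12 hours in whole flies. The members were all genes whose current symbol is Cyp, a family number, a letter and a gene number, each read from its brightest probe set. 83 of the 10844 genes named by a single probe set annotation carried a symbol that begins with Cyp and a digit. 2 of them, Cyp1 and Cyp40, encode cyclophilins, which are prolyl isomerases and no P450s, and the remaining 81 are the P450 genes described here. Members of the superfamily with other symbols, such as the ecdysteroid enzymes named phtm, dib, sad, shd and spo, are given apart.

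Cytochrome P450 enzymes hold a heme group and insert an oxygen atom into their substrates, with electrons passed on by P450 reductase or, in mitochondria, by ferredoxin. In insects the CYP3 clan, which holds the Cyp6, Cyp9 and Cyp28 families, is best known for the breakdown of plant toxins and insecticides. The CYP4 clan includes enzymes of fatty acid and hydrocarbon metabolism, and the CYP2 and mitochondrial clans include the enzymes that make and inactivate the molting hormone. Many P450 genes of the fly are expressed in midgut, Malpighian tubule and fat body, and transcripts of several have been reported to cycle with the circadian clock.

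The study measured whole-animal RNA on Affymetrix arrays, with 1 array at each of hours 1, 2, 3, 5, 6, 7, 9, 10, 11 and 12. All 10 arrays came from flies kept on food without yeast (group NY) from the early last larval instar up to collection, which started when adults were 4 days past emergence. Hours 4 and 8 gave too little RNA, per the labels, and strain, sex and the number of flies per array are not stated there. Flies returned to yeast (group Y), and the samples collected before the course, were not analysed here, so every array carries the yeast-free diet and the hour was the factor compared. With 1 array an hour, each limma p-value sets a fitted change against the scatter of single arrays about the fit. That scatter may be technical. In whole animals, fewer cells of a type and less RNA per cell cannot be told apart.

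Some arrays stood apart. The hour 3 array had the highest median intensity, 120, where the others lay between 111.1 and 115.6, and 30.8% of all tested probe sets had their highest value there. At hour 7 the tested sperm and spermatid genes averaged 1.59 above their own means on the log2 scale, against -0.228 to -0.113 on the other arrays. The antimicrobial peptide genes DptB and Mtk were highest at hour 9, with 1531 and 1420, while Def was highest at hour 2, with 1144. The yolk protein gene Yp1 had 161.7 at hour 12 against 1332 at hour 1. All 4 female markers tested had a negative slope on the hour, with a median fitted log2 change of -1.66 from hour 1 to hour 12. None of them passed the trend after adjustment. Of the listed markers of midgut, Malpighian tubule and fat body, 4 of 6, 2 of 5 and 3 of 5 were bright enough to test. Of those of oenocyte, hemocyte and photoreceptor, 4 of 6, 2 of 5 and 3 of 4 were. The fat body genes fit and Fbp2 and the hemocyte genes PPO1, NimC1 and eater were too dim, and no probe set was annotated to the rest alone. The part of these differences in the P450 values below was not tested, except where the values without hours 3, 7 and 9 are given. Those values still hold hours 1 and 6, where the female markers were highest.

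44 of the 81 P450 genes were bright enough to test, 54.3% of them, where 62.9% of all named genes were. A probe set was tested when its mean log2 intensity, after values under 57.2 were raised to that floor, reached the level of 93.8 intensity units. 12 of 22 Cyp4 genes, 16 of 23 Cyp6 genes, 3 of 5 Cyp9 genes, 3 of 6 Cyp12 genes and 2 of 4 Cyp28 genes were tested. The 21 genes of smaller families gave 8 tested ones, namely Cyp301a1, Cyp303a1, Cyp305a1, Cyp308a1, Cyp309a1, Cyp313a1, Cyp313a3 and Cyp313a4. The other 37 genes were dim, with mean intensities between 10.9 and 94.3. 15 of them lay at or under the floor on all 10 arrays, among them Cyp12d1-d, Cyp4d21, Cyp316a1, Cyp310a1, Cyp304a1 and Cyp6a17. 7 dim genes passed 93.8 on at least 1 array. Cyp4c3 was one of these, with 134.3 at hour 3 and no more than 90.9 on any other array.

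**Figure D1:**
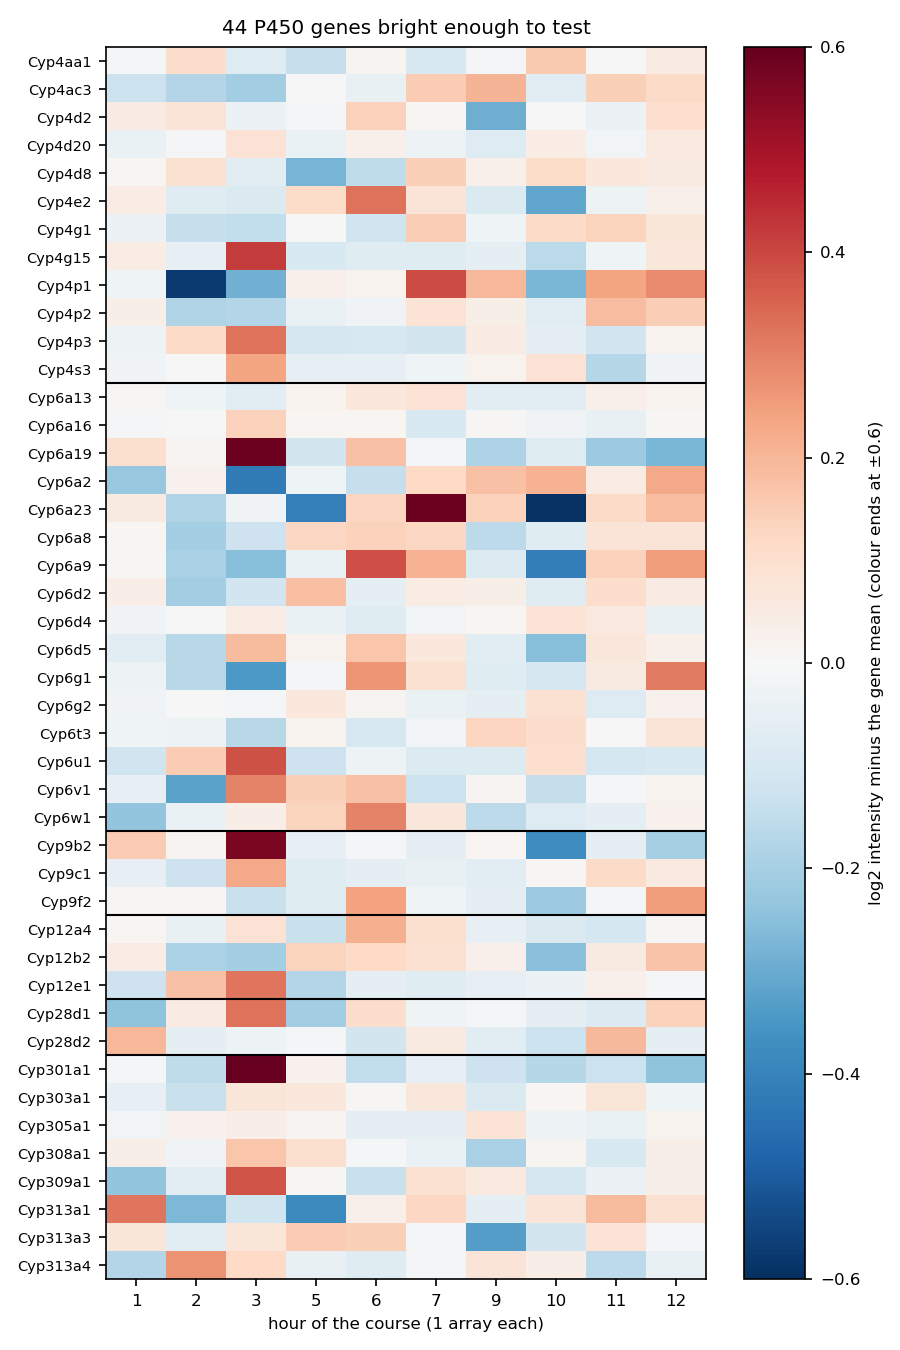
The log2 intensity of each of the 44 tested P450 genes, minus the gene's own mean, on the array of each hour. Rows are grouped by family (Cyp4, Cyp6, Cyp9, Cyp12, Cyp28 and others, between black lines), and red marks arrays above the gene's mean. Cyp301a1, Cyp9b2, Cyp6a19 and Cyp4g15 are darkest at hour 3, Cyp6a23 at hours 7 and 10.

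The P450 genes varied over the course about as much as other genes. The ratio of the highest to the lowest array, after the floor, had a median of 1.36 over the 44 genes and 1.33 over all 6822 tested genes. It passed 1.5 for 12 P450 genes, 27.3% of them, against 26.4% of all tested genes. It passed 2 for 2, Cyp301a1 and Cyp6a23, 4.545% of the P450 genes against 6.948% of all tested genes. By family the median ratio was 1.33 for Cyp4, 1.39 for Cyp6, 1.39 for Cyp9, 1.34 for Cyp12 and 1.37 for Cyp28. The steadiest tested members were Cyp305a1, Cyp6a13, Cyp6d4 and Cyp4d20, with ratios of 1.099, 1.11, 1.12 and 1.12. Besides the genes described below, Cyp313a1 was among the 8 with the largest ratio, 1.63, from 126.6 at hour 1 and 77.7 at hour 5. Cyp305a1 lay between 134.3 at hour 6 and 147.6 at hour 9, with a median of 139.5.

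The first comparison asked which P450 genes had a linear trend over the hours, printed as the fitted change from hour 1 to hour 12. 0 of 44 passed by limma after Benjamini-Hochberg adjustment over all 8380 tested probe sets, and the smallest adjusted p was 0.937. Over all probe sets 4 passed, 0.0477%. At an unadjusted p under 0.05 there were 7 P450 genes, where 3.71% of all probe sets passed. 5 had a positive slope, 11.4% of the tested P450 genes, where 1.32% of all probe sets did, and 2 had a negative slope, 4.55% against 2.39%. The 5 were Cyp6a2, Cyp4g1, Cyp4ac3, Cyp4p1 and Cyp4p2, and the 2 were Cyp6a19 and Cyp9b2. The 5 are not 5 independent observations, since they share the same 10 arrays and Cyp4p1 and Cyp4p2 moved together, as described below. Without the array of hour 12 the count of 7 became 4.

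Fitted changes were small for most members. 25 slopes were positive and 19 negative, the median was 0.02 on the log2 scale, and 23 of the 44 changes lay within 0.1 of 0 (log2). Over all tested probe sets the median was -0.04 and 36.6% of slopes were positive, against 56.8% for the P450 genes. Leaving out hour 1 gave a P450 median of -0.01, and leaving out hour 12 gave -0.02, so its sign rested on those arrays. By family the medians were 0.04 for Cyp4, 0.03 for Cyp6, 0.06 for Cyp9, -0.07 for Cyp12 and -0.01 for Cyp28, and -0.05 for the 8 genes of other families. By clan they were 0.02 over 23 genes of the CYP3 clan, 0.02 over 15 of the CYP4 clan, 0.02 over 2 of the CYP2 clan and -0.08 over 4 of the mitochondrial clan.

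**Figure D2:**
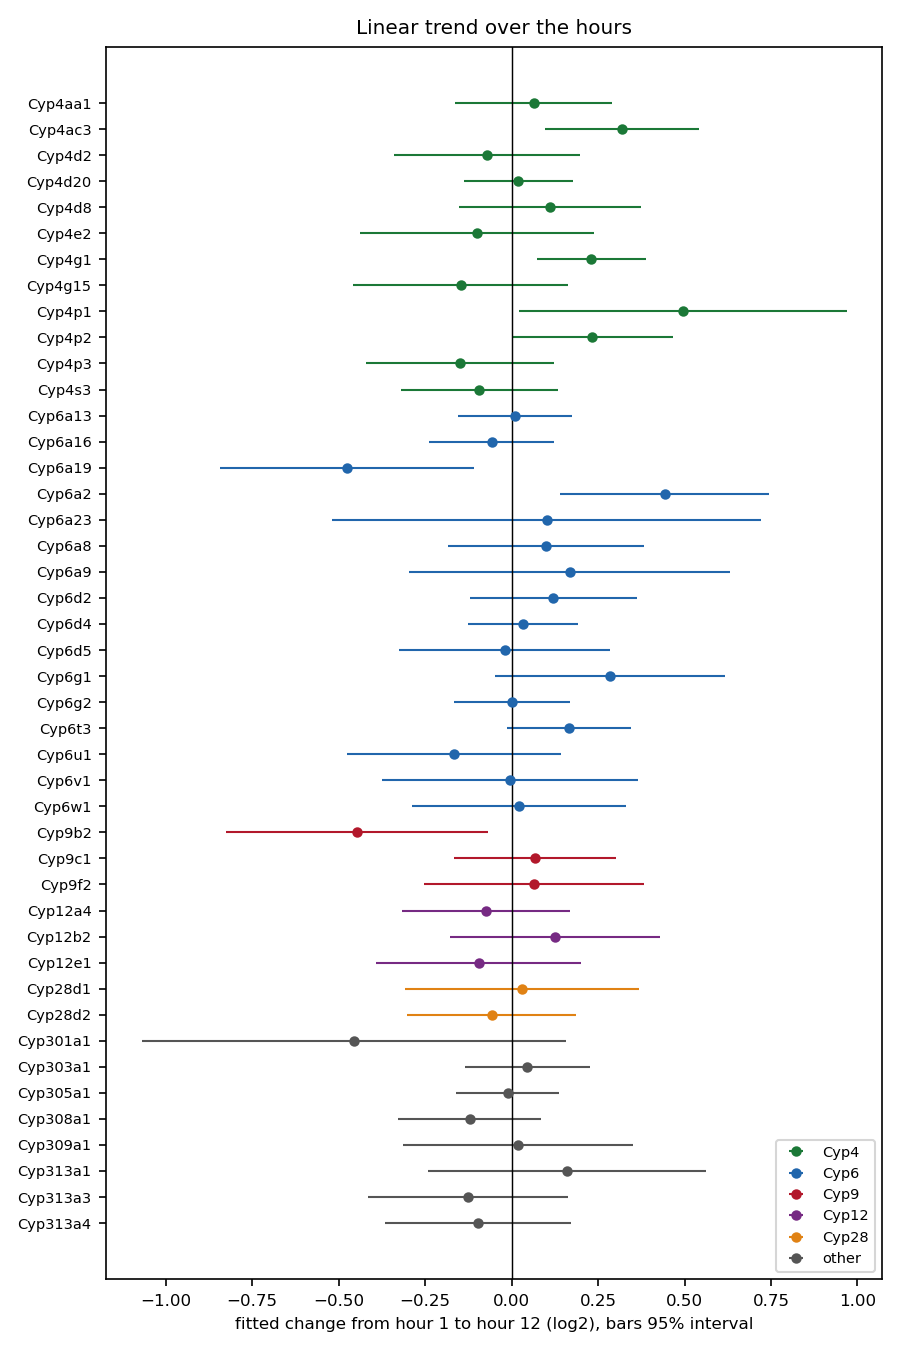
The fitted change of each tested P450 gene from hour 1 to hour 12 on the log2 scale (point), with its 95% interval (bar), coloured by family. The points lie between -0.48 for Cyp6a19 and 0.50 for Cyp4p1. The bars of Cyp4ac3, Cyp4g1, Cyp4p1, Cyp4p2 and Cyp6a2 stay above 0, and those of Cyp6a19 and Cyp9b2 stay below it. The intervals are not adjusted for the number of genes, and none of these genes passed after adjustment.

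Cyp6a2, an enzyme that metabolises insecticides and is overproduced in some DDT-resistant strains, had the smallest p-value. Its intensities were 806.1, 960.1, 704.5, 926.9 and 857.1 over hours 1 to 6, then 1025, 1065, 1091, 973.3 and 1104 over hours 7 to 12. The arrays from hour 7 on all lay above those up to hour 6. The fitted log2 change was 0.44 ± 0.14 (SE, n = 10 arrays; limma, adjusted p = 0.937), with a 95% interval of 0.14 to 0.74. Without the arrays of hours 3, 7 and 9 it was 0.32.

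Cyp4g1 is the oenocyte decarbonylase that carries out the last step of hydrocarbon synthesis for the cuticle. It had 8556, 7983, 7921, 8759 and 8084 at hours 1, 2, 3, 5 and 6, and 9715, 8624, 9501, 9620 and 9237 at hours 7, 9, 10, 11 and 12. The later arrays were mostly the higher ones, with an overlap between hour 9 and hour 5. The fitted change was 0.23 ± 0.07 (SE; limma, adjusted p = 0.937; 95% interval 0.07 to 0.39), and 0.15 with quantile normalization. These values lay between 85.2% and 100% of the brightest probe set of the same array, and at hour 12 Cyp4g1 was that probe set. The part of the upper end of the intensity range in its differences was not tested. Other oenocyte markers did not pass the test, and their mean deviations lay between -0.118 at hour 3 and 0.104 at hour 12.

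Cyp4ac3 lies beside Cyp4ac1 and Cyp4ac2, which were dim. It had 169, 163.8, 160.3, 185.5 and 179.2 at hours 1 to 6 and 205.9, 212.9, 177, 204.5 and 200.3 at hours 7 to 12. Only the hour 10 array lay within the range of the earlier hours. The fitted change was 0.32 ± 0.10 (SE; limma, adjusted p = 0.937; 95% interval 0.10 to 0.54).

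The members with the smallest p-values among negative slopes were high at hour 3. Cyp6a19 had 117.2, 110.6, 164.4, 101.5, 123.8, 108.7, 96.2, 104, 94 and 90.5 over the 10 hours in order. It was highest at hour 3 and lowest at hour 12. The fitted change was -0.48 ± 0.17 (SE; limma, adjusted p = 0.937), and -0.32 without the array of hour 3. Cyp9b2 had 351.3, 319.6, 467.2, 305.2, 313.5, 303.6, 318.4, 243.3, 304.2 and 275.6, with a change of -0.45 ± 0.17 (SE; limma, adjusted p = 0.937), and -0.29 without the array of hour 3. Its second tested probe set had 218.8 at hour 3 and between 112.7 and 125.9 elsewhere, and its change was -0.25 ± 0.23 (SE; unadjusted p = 0.299 by limma, adjusted p = 0.937), so Cyp9b2 is in the unadjusted counts through the brighter probe set alone. Both probe sets were thus highest at hour 3, while the low value of hour 10 was seen with the brighter one alone. Cyp301a1, an enzyme needed for the adult cuticle, had -0.46 ± 0.28 (SE; limma, adjusted p = 0.937), and -0.14 without the array of hour 3. Cyp308a1 and Cyp4p3 had -0.12 ± 0.09 and -0.15 ± 0.12 (SE), and without the array of hour 3 these were -0.07 and -0.05.

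The second comparison set hours 7 to 12 against hours 1 to 6, with 5 arrays a side. 0 of 44 P450 genes passed by limma, where 0.0119% of all probe sets did. At an unadjusted p under 0.05 there were 8, where 6.25% of all probe sets passed. These held 6 with a higher later level, 13.6% against 1.56% of all probe sets, and 2 with a lower one, 4.55% against 4.69%. The 6 were Cyp4g1, Cyp6a2, Cyp4ac3, Cyp4p1, Cyp4d8 and Cyp6t3, and the 2 were Cyp6a19 and Cyp9b2. Leaving out hour 3 or hour 7 made the count 5 in place of 8, and leaving out hour 12 made it 4.

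Cyp4g1 had the smallest adjusted p. Its mean was 9339 ± 438.2 in the later hours and 8261 ± 374 in the earlier hours (SD, n = 5 each), a log2 difference of 0.18 ± 0.04 (SE; limma, adjusted p = 0.345). With quantile normalization it was 0.07 (limma, adjusted p = 0.841). Cyp6a2 had 1052 ± 53.3 in the later hours and 851 ± 101.5 in the earlier hours, a difference of 0.31 ± 0.09 (SE; limma, adjusted p = 0.517). All 5 later values of Cyp6a2, 973.3 to 1104, lay above all 5 earlier values, 704.5 to 960.1. It was the 1 of 44 P450 genes with that separation, found for 0.239% of all probe sets, and 0 of 44 had the opposite separation, found for 1.25%.

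The other differences did not pass either. Cyp4ac3 had 200.1 ± 13.7 in the later hours and 171.5 ± 10.6 in the earlier hours, a difference of 0.22 ± 0.06 (SE; limma, adjusted p = 0.534). Cyp4d8 had 125.1 ± 3.94 in the later hours and 112.5 ± 11.1 in the earlier hours, a difference of 0.16 ± 0.07 (SE; limma, adjusted p = 0.781). With hours 5 to 12 set against hours 1 to 3 the Cyp4d8 difference was -0.02. Cyp6t3, which is required for ecdysone synthesis in the larval prothoracic gland, had 159.9 ± 7.01 in the later hours and 147.1 ± 7.34 in the earlier hours, a difference of 0.12 ± 0.05 (SE; limma, adjusted p = 0.781). Among the lower ones, Cyp6a19 had 98.7 ± 7.47 in the later hours and 123.5 ± 24.3 in the earlier hours. Cyp313a3 had 199.8 ± 20.8 in the later hours and 221.1 ± 13.3 in the earlier hours, a difference of -0.15 ± 0.08 (SE; limma, adjusted p = 0.816), and -0.09 without the array of hour 9. The median difference over the 44 genes was -0.01, with 20 positive and 24 negative, against a median of -0.03 over all probe sets. The P450 median turned to 0.02 with quantile normalization and with median centring. Median centring moves the change of each probe set by the same amount. The P450 median therefore kept its distance from that of all probe sets under it.

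**Figure D3:**
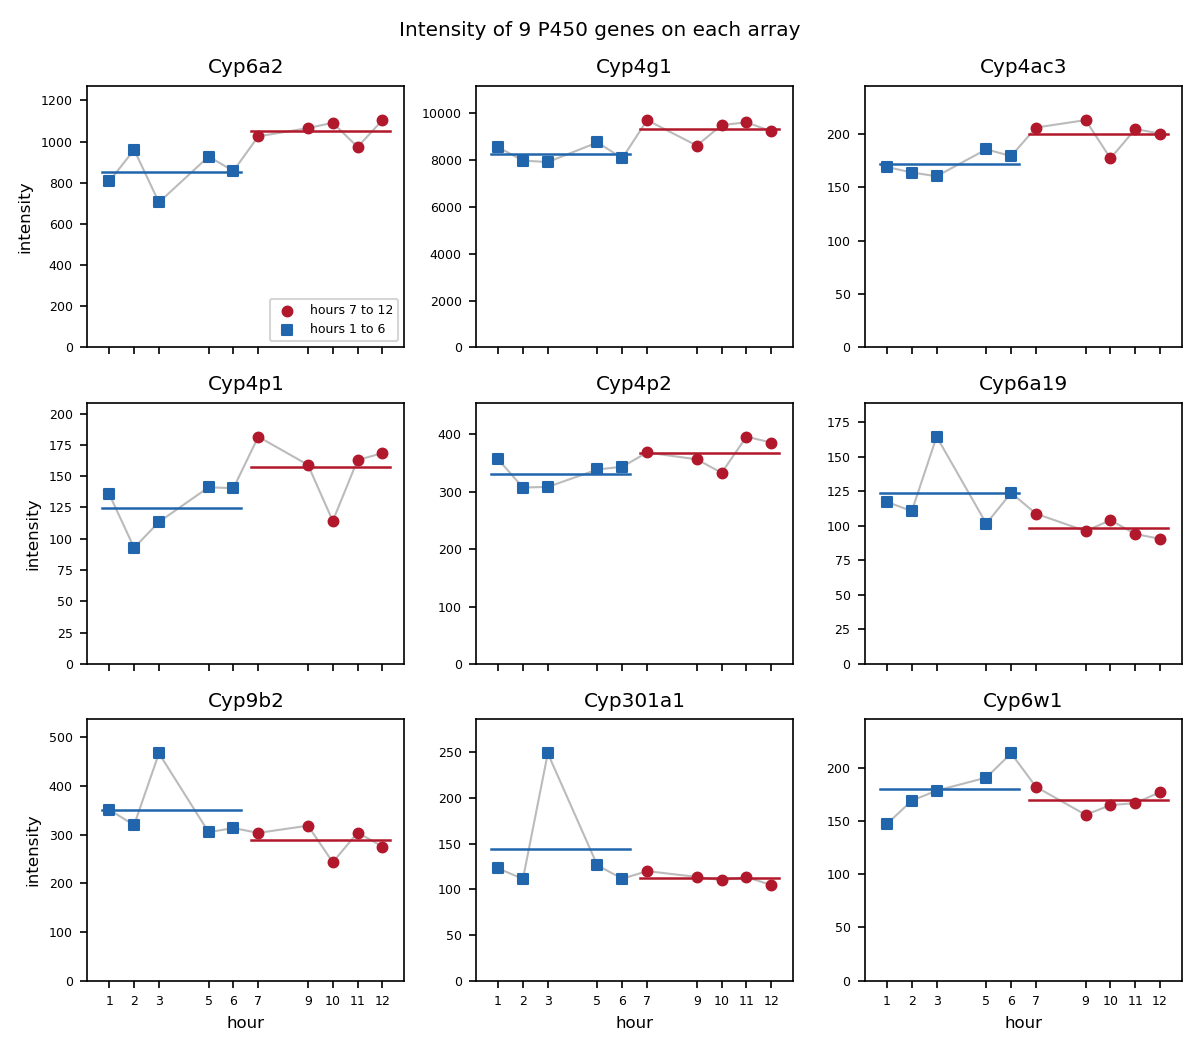
Intensity of 9 P450 genes on each array by hour, with hours 7 to 12 as red circles and hours 1 to 6 as blue squares; horizontal lines are the means of the 5 arrays of each side and the axes start at 0. The red points of Cyp6a2 (973.3 to 1104) all lie above the blue ones (704.5 to 960.1), and Cyp9b2, Cyp6a19 and Cyp301a1 have their highest point at hour 3.

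The third comparison asked for any smooth course, such as the fall and rise of a clock output. The arrays span hours 1 to 12, so a 24 hour cycle was not covered. By the limma F test over a spline of the hour 0 of 44 P450 genes passed, with 0.0% of all probe sets, and 1 had an unadjusted p under 0.05, where 1.62% of all probe sets did. That gene was Cyp6w1, which is inducible by phenobarbital (unadjusted p = 0.00921; limma, adjusted p = 0.9999). It had 147.2, 169.2, 178.5, 190.8 and 213.6 at hours 1, 2, 3, 5 and 6, and 182.1, 155.8, 164.9, 166.8 and 177.1 at hours 7, 9, 10, 11 and 12. Each array up to hour 6 was above the one before it, and the lowest later array was that of hour 9. Without single arrays the spline count was between 1 and 5, with 5 on leaving out hour 1. With a quadratic curve its unadjusted p was 0.165 and with a 24 hour cosine and sine 0.15. Under those curves 4 P450 genes each had an unadjusted p under 0.05 and 0 passed the limma test after adjustment. The share of all probe sets at that unadjusted p was not counted under those curves or without single arrays. These counts therefore cannot be set against other genes. Cyp6a2, Cyp4ac3, Cyp4g1 and Cyp6a19 followed Cyp6w1 in the spline test, with unadjusted p-values between 0.0647 and 0.109 (limma, adjusted p = 0.9999 for each).

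Of 6 P450 genes that studies of circadian expression have named, 3 were bright enough to test, and none passed any of the 3 comparisons by limma. Cyp4d21, known as sxe1 and linked to male courtship, lay between 21.5 and 27.9, under the floor on all 10 arrays. Cyp6a21 lay between 71.3 at hour 12 and 107.7 at hour 3, and Cyp18a1, the hydroxylase that inactivates ecdysteroids, between 68.9 at hour 10 and 107.7 at hour 6, both too dim to test. Cyp305a1 had a fitted change of -0.01 ± 0.07 (SE; limma, adjusted p = 0.985), with a 95% interval of -0.16 to 0.14. Cyp6g1, the enzyme behind a widespread resistance to DDT, had 94.8 at hour 3, a median of 118.7 and 149.2 at hour 12, with a fitted change of 0.28 ± 0.15 (SE; limma, adjusted p = 0.937). Of 7 clock genes 6 were tested and 1, vri, passed the trend, with 0.98 ± 0.14 (SE; limma, adjusted p = 0.0458). No probe set passed the trend without the array of hour 5, 6, 7, 9, 10 or 12, or without the filter on dim probe sets, so that call was lost there. The clock gene tim had 250.7 at hour 7 and 785.8 at hour 12, a ratio of 3.13 between its highest and lowest arrays. The highest ratio among the 3 tested P450 genes named above was 1.57. Yet tim too passed none of the 3 comparisons (limma, adjusted p = 0.937, 0.8165 and 0.1614). For the smooth course 0 of 8380 probe sets passed. Not passing these tests therefore does not tell a cycling gene from a steady one here.

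The enzymes of xenobiotic and insecticide metabolism had 7 of 8 genes tested and 0 called, 5 with a positive and 2 with a negative slope. Their median change was 0.10, against 0.02 over all 44 P450 genes and -0.04 over all probe sets. Cyp6a8, which caffeine and barbiturates induce, lay between 378.7 at hour 2 and 479.8 at hour 6, with a median of 449.6. Cyp6d5, inducible by phenobarbital, lay between 292.2 at hour 10 and 398.4 at hour 3. Cyp12a4, a mitochondrial enzyme that confers resistance to lufenuron when overexpressed, lay between 213.6 at hour 5 and 271.8 at hour 6. Cyp12d1-d lay between 25.3 and 39.3, and 1 probe set annotated to Cyp12d1-d and Cyp12d1-p together was assigned to neither.

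All 4 genes of cuticle and bristles were tested and 0 were called, with a median change of -0.05, 2 slopes positive and 2 negative. Cyp301a1 had 249 at hour 3, while the other 9 arrays lay between 104.7 and 126.1, so its ratio of 2.38 between highest and lowest became 1.204 without hour 3. Cyp4g15, a relative of Cyp4g1 expressed in the nervous system, had 221.1 at hour 3 and between 147.8 and 173.2 elsewhere. Cyp303a1, needed for the development of sensory bristles, lay between 124.5 and 143.7 with a median of 137.3. Of the 4 genes of ecdysteroid and juvenile hormone metabolism 3 were tested and 0 called. Cyp6g2, expressed in the corpus allatum that makes juvenile hormone, lay between 191.3 and 214.5. Cyp6u1 lay between 137.2 and 194.7, with its highest value at hour 3. Both genes known from behaviour were dim, Cyp4d21 as given above and Cyp6a20, known from male aggression, between 58.9 and 77.4.

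High values at hour 3 were about as frequent among P450 genes as among others. 16 of 44 were highest there, 36.4% against 31.3% of all tested genes. 11 of 44, which is 25%, stood at least 1.2-fold above the median of their other 9 arrays, where 21.7% of all probe sets did. Cyp9c1 was just inside that limit with 1.21-fold and Cyp4s3 just outside it with 1.197-fold. The largest were Cyp301a1 with 2.196-fold, Cyp6a19 with 1.58-fold and Cyp9b2 with 1.53-fold. At the same hour the tested midgut genes averaged 0.318 above their means on the log2 scale and oenocyte genes -0.118. The hemocyte gene Hml had 300.5 there and at most 207.6 elsewhere, while PPO2, the other tested one, had 132.3 there and at most 132.5 elsewhere. The tubule gene Irk3 had its lowest value there, 151.1, while ZnT35C had 280, near its level on most arrays. The lowest array was that of hour 10 for 9 of 44 P450 genes, 20.5% against 23.5% of all tested genes, among them Cyp6a9, Cyp6a23, Cyp4e2, Cyp9f2 and Cyp6d5. Both tested probe sets of Cyp9f2 were lowest at hour 10, with 398.3 and 344.1.

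P450 genes often lie next to each other, and 41 of the 81 belonged to 14 runs of neighbouring P450 genes in the Release 6 gene table. 13 pairs of tested genes shared a run, and their log2 intensities were compared over the 10 arrays, a comparison chosen after the values were seen. Cyp4p1 and Cyp4p2 were the 1 pair that passed, with a Pearson r of 0.883 (permutation p = 0.00079, adjusted p = 0.0103 over 13 pairs) and a Spearman rho of 0.903 (permutation p = 0.00082, adjusted p = 0.0107). Among 3616 pairs of adjacent tested genes of all kinds, 1.19% had an r at least as high. An r above 0.7 was found for 7.58% of them and for 3 of the 13 P450 pairs, 23.1%. The medians went the other way, with an r of 0.114 over the adjacent pairs and 0.0226 over the P450 pairs. The P450 pairs share a run but are not all adjacent, so unlike pairs are compared here. Of the 3 with an r above 0.7, Cyp4p1 and Cyp4p2 are adjacent, while other genes lie between Cyp6a23 and Cyp6a9 and between Cyp6a9 and Cyp6a8. Without the 2 arrays farthest from the median of Cyp4p2, the r of Cyp4p1 and Cyp4p2 was 0.766. The adjusted permutation p was 0.0601 without the array of hour 2, 0.0534 about the straight line on the hour and 0.0819 with quantile normalization, with r of 0.844, 0.820 and 0.757. Cyp4p1 had 135.6, 92.7, 113.4, 141.1, 140.4, 181.5, 159, 114.2, 162.9 and 168.4 over the hours, and Cyp4p2 had 356.2, 307.2, 308.3, 338.6, 343.4, 368.2, 356.3, 332.8, 395.7 and 385.5. The fitted trend was 0.50 ± 0.22 for Cyp4p1 and 0.23 ± 0.11 for Cyp4p2 (SE; limma, adjusted p = 0.937 for each), and that of Cyp4p1 was 0.31 without the array of hour 2. Both were lowest at hours 2 and 3 and high at hours 7, 11 and 12. Cyp4p3, in the same run, was highest at hour 3 with 233.7 and lowest at hour 11 with 171.9, and its r was -0.626 with Cyp4p2 and -0.54 with Cyp4p1 (permutation, adjusted p = 0.16 and 0.281). Without the 2 arrays farthest from the median of the first gene these were 0.0645 and -0.423, so the value with Cyp4p2 rested on those arrays. Probe sets of related genes can share target sequence, and the part of that in these correlations was not tested.

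In the largest run, of 9 neighbouring genes, 4 were tested. Cyp6a9 had an r of 0.76 with Cyp6a8 (permutation p = 0.0124, adjusted p = 0.0806) and of 0.709 with Cyp6a23 (permutation p = 0.021, adjusted p = 0.091), and these did not pass. Without the 2 arrays farthest from the median of the first gene of a pair, r was 0.792 between Cyp6a9 and Cyp6a8 and 0.504 between Cyp6a23 and Cyp6a9. Cyp6a23 had 203.6 at hour 7 and 89.8 at hour 10, a ratio of 2.27, and Cyp6a9 had 189.2 at hour 6 and 108.6 at hour 10, a ratio of 1.74. Cyp6a19 of the same run had r between -0.239 and -0.00798 to the other 3 genes, and between 0.0171 and 0.109 without the array of hour 3. Cyp6g1 had an r of 0.0226 with its neighbour Cyp6g2 and of 0.257 with Cyp6t3, and these were -0.00706 and -0.249 without the array of hour 3. Correlations over the hours also hold any trend the genes share.

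**Figure D4:**
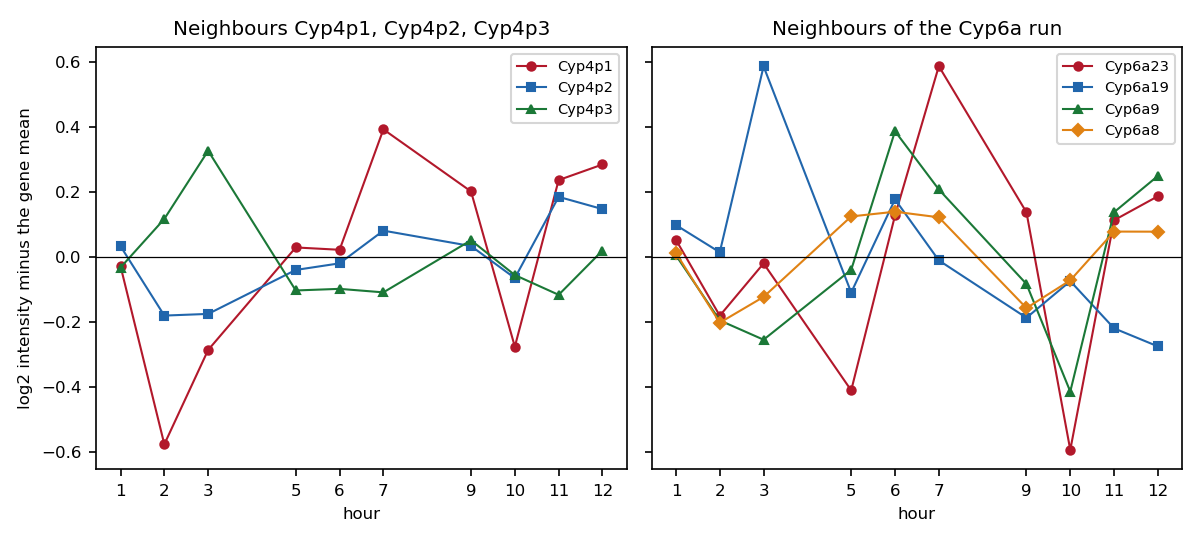
The log2 intensity minus each gene's mean by hour for tested neighbouring genes, Cyp4p1, Cyp4p2 and Cyp4p3 on the left and Cyp6a23, Cyp6a19, Cyp6a9 and Cyp6a8 on the right. Cyp4p1 and Cyp4p2 move together (r = 0.883), with Cyp4p3 on the other side at hour 3, and Cyp6a23 and Cyp6a9 are both lowest at hour 10.

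Other genes of the pathway were read from lists by role. Of the ecdysteroid P450 genes with other symbols, dib, sad and spo were dim, and phtm and shd were tested without passing, with changes of -0.09 ± 0.10 and 0.05 ± 0.07 (SE; limma, adjusted p = 0.937 and 0.945). Of the redox partners and related genes, Cyt-b5, Cyt-b5-r, Fdx1 and Fdx2 were tested and 0 of 4 passed, and no probe set was annotated to Cpr or dare alone. Cyt-b5, the cytochrome that can pass electrons to P450 enzymes, had 1292 at hour 7 and 849.2 at hour 2. Cyt-b5-r, which encodes a cytochrome b5-related protein, had a fitted change of -0.24 ± 0.13 (SE; limma, adjusted p = 0.937). Of 10 regulators of detoxification genes 6 were tested and 0 passed. They include cnc, the Nrf2 homologue that raises detoxification genes, with -0.16 ± 0.11 (SE; limma, adjusted p = 0.937). The cyclophilin genes Cyp1 and Cyp40, set apart above, lay between 1508 and 2015 and between 91.2 and 119, with limma adjusted p-values for the trend of 0.97 and 0.959.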

How the data were processed

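The authors hybridised Trizol-extracted whole-fly RNA at a core facility and normalized the arrays with dChip, which selects invariant probe sets to relate arrays, per the labels. The deposited intensity values are linear and relative, so they compare a probe set between arrays; scaling by the authors would remove a change shared by most transcripts. The dChip version is not stated. The table held 14010 probe sets, 44 of them controls, on 10 arrays, with 0 columns unused.

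Gene names came from the platform annotation, updated by Entrez identifier to the Release 6 gene table, and probe sets annotated to several genes were left unnamed. Intensities under the 20th percentile, 57.2, were raised to it, and the 8380 probe sets at or above the 40th percentile of mean log2 were tested. limma (lmFit, eBayes with an intensity trend, Benjamini-Hochberg at 0.05, two-sided) fitted the slope on the hour, the contrast of hours 7 to 12 with hours 1 to 6, or a natural cubic spline with 3 degrees of freedom. Fold changes after the floor understate those of dim genes. The fits were tried on simulated data with independent noise and no shift shared within an array. That trial does not cover arrays that stood apart. Correlations used 100000 permutations, two-sided. Alternatives were other normalizations, floors, filters, variance models, breaks and curves, and leaving out arrays.

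Named P450 genes were those past a test, the 5 smallest p-values in each direction of the trend and of later against earlier hours, the 5 smallest of the spline, the 8 largest and 4 smallest ratios of highest to lowest array, and the members of the lists by function. Cyp4e2, Cyp9f2, Cyp9c1, Cyp4s3, Cyp4c3 and the dim genes outside the lists were also chosen as examples after their values were seen. The members and lists were chosen with earlier results of these data known. The number of arrays limits the precision. Tools were R 4.3.3, limma 3.58.1, Python 3.11.15, pandas 2.3.3, numpy 2.4.6 and matplotlib 3.10.9.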

Additional observations from a re-analysis of the deposited data

Results flagged for a closer look

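7 of the tested P450 genes had 1 array far from the other 9, by the gap to the nearest array as a share of the whole range on the log2 scale. 44 genes were examined on both sides, and chance flags about 1 in 20 sets of values. The share flagged was 15.9% of the P450 genes and 18.5% of all 6822 tested genes. 6 of the 7 were high at hour 3, which is 13.6% of the tested P450 genes, and 13.6% of all tested genes were flagged in that way. These were Cyp301a1 with 249 against 126.1 on the next array, Cyp4g15 with 221.1 against 173.2, Cyp6a16 with 272.6 against 249.9, Cyp6a19 with 164.4 against 123.8, Cyp4p3 with 233.7 against 202.1 and Cyp309a1 with 123.6 against 101.2. The gap took 78.6% of the range for Cyp301a1. The seventh, Cyp4d2, was low at hour 9 with 276.7 against 331 on the next array.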

How the results depend on the processing

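0 P450 genes were called by limma in all 67 counts under the alternatives, while over all probe sets the trend gave 0 to 5, later against earlier hours 0 to 3 and the smooth course 0 to 6. Of 554 values of named genes, 553 kept their side of the threshold and, outside the smooth course, their direction. The smallest limma adjusted p was 0.205. The exception was Cyp4d8, with -0.018 for hours 5 to 12 against hours 1 to 3. The smooth course has no direction. Other filters and variance models do not alter a fitted change, so its direction could not turn there. As reported, the smallest limma adjusted p of a P450 gene was 0.345, so the side had little room to change. P450 genes at an unadjusted p under 0.05 numbered 4 to 8 for the trend, 3 to 9 for later against earlier hours and 1 to 5 for the smooth course. The matching shares of all probe sets were not counted under the alternatives. The median P450 trend was 0.067 with quantile normalization and 0.0615 with median centring, and lay between -0.0166 and 0.0437 without single arrays. The median of later against earlier hours was 0.0221 with quantile normalization and 0.0164 with median centring. Of the neighbouring pairs 0 passed with quantile normalization, about the straight line on the hour, or without the arrays of hours 3, 7 and 9, and 0 or 1 without single arrays. The r of Cyp4p1 and Cyp4p2 was then 0.757, 0.820 and 0.921, and 0.844 to 0.906 without single arrays. The cause was not tested. No paired analysis was possible because there was 1 group and 1 array at each hour.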
